A study of Mus musculus with 4 samples.

Results

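Aminoacyl-tRNA synthetases are the enzymes that join each amino acid to its transfer RNA. Their 36 nuclear genes were picked by gene symbol from the 27933 genes in the count tables. The rule used no measured value, but earlier results of these data were known when the genes were chosen. They comprise 20 genes for enzymes of the cytosol and 16 genes for enzymes of mitochondria, whose symbols end in 2. All 36 were abundant enough to be tested, among 13348 tested genes. RNA-seq had been made from mouse melanocyte stem cells, the reserve of pigment cell precursors in the hair follicle, sorted from skin by fluorescence. Per the labels, 2 control libraries came from mice given Saline and 2 stressed libraries from mice given RTX, an agent the labels name by this abbreviation alone, and the cells were taken 12 h after injection. Strain, genotype, sex, age and the number of animals per library are not given in the labels. What the p-values gauge is therefore the variation among these libraries, some of which may be technical. Going by its title, the study concerns loss of these cells when sympathetic nerves are strongly active. Here the question was how the synthetases of each compartment stood in stressed against control cells.

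Each synthetase recognises its amino acid and a matching set of tRNAs, and spends ATP to form the ester bond between them. Cytosolic translation and the separate translation system inside mitochondria mostly use different synthetases, all encoded in the nucleus. Exceptions are Gars and Kars, for glycine and lysine, where a gene serves both compartments, and glutamine, whose mitochondrial tRNA is charged with glutamate first and then converted by an amidotransferase. Several cytosolic enzymes sit together in the multisynthetase complex, held by the scaffold proteins encoded by Aimp1, Aimp2 and Eef1e1. Uncharged tRNA activates the kinase GCN2 (Eif2ak4), which phosphorylates eIF2 and raises translation of the transcription factor ATF4. Amino acid transporters, amino acid synthesis enzymes and many cytosolic synthetases are known ATF4 targets.

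The libraries held 9273652 to 11854280 counts assigned to genes, and 3 counts, the limit that a count of 0 allows, corresponded to 0.254 to 0.321 CPM (counts scaled to a common total by TMM). This limit covers counting error only. All 10 melanocyte markers were detected in every library and summed to 23150 and 21817 CPM in control and 40263 and 37143 CPM after RTX. All 17 keratinocyte markers were also above 3 counts in every library and summed to 31045 and 19153 CPM in control and 12863 and 10886 CPM after RTX. The fibroblast, endothelial, immune and mast cell lists each summed to 40.7 CPM or less in every library, with Lum, Cdh5, Mcpt4 and Tpsb2 at 0 throughout. The Schwann cell list summed to 754 to 1055 CPM. By edgeR's fit, 9 of the 10 melanocyte markers had a fold change above 0 (median 0.71 on the log2 scale) and 0 of the 17 keratinocyte markers did (median -1.05). The summed marker levels thus separated the groups in opposite directions, and their part in the synthetase results below was not tested. In such bulk RNA, fewer cells of a type and less RNA per cell cannot be told apart.

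The 20 cytosolic synthetase genes all had a fitted log2 fold change above 0, stressed over control, against 49.1% of all tested genes. Their median was 0.36, with a range of 0.06 to 0.95, beside a median of -0.01 over all tested genes. Tarsl2, a threonyl-tRNA synthetase-like gene outside these 20 and singled out after its values were seen, lay the other way, at 12.5 and 12.4 CPM in control and 7.60 and 7.64 CPM after RTX (-0.71 ± 0.33, adjusted p of 0.445 by edgeR). In 16 of the 20, both stressed libraries lay above both controls, which was so for 21.8% of all tested genes, and none had both below. The main test, edgeR's quasi-likelihood test with Benjamini-Hochberg adjustment over all genes, called none of them at an adjusted p of 0.05, and it called 0% of genes at large (0 of 13348). The smallest adjusted p of the 20 was 0.181. At an unadjusted edgeR p below 0.05, 6 of the 20 were higher and 0 lower, beside 5.17% and 7.6% of all tested genes. DESeq2's Wald test called 3 of the 20 higher and 0 lower, beside 1.75% of all tested genes higher and 2.67% lower, and limma-voom called 0. Cytosolic synthetases are abundant transcripts, so the tested genes with a mean of at least 50 CPM are a closer background: of 5174 such genes, 28.4% had both stressed libraries above both controls, 58.1% had a fold change above 0, and the median was 0.06.

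**Figure D1:**
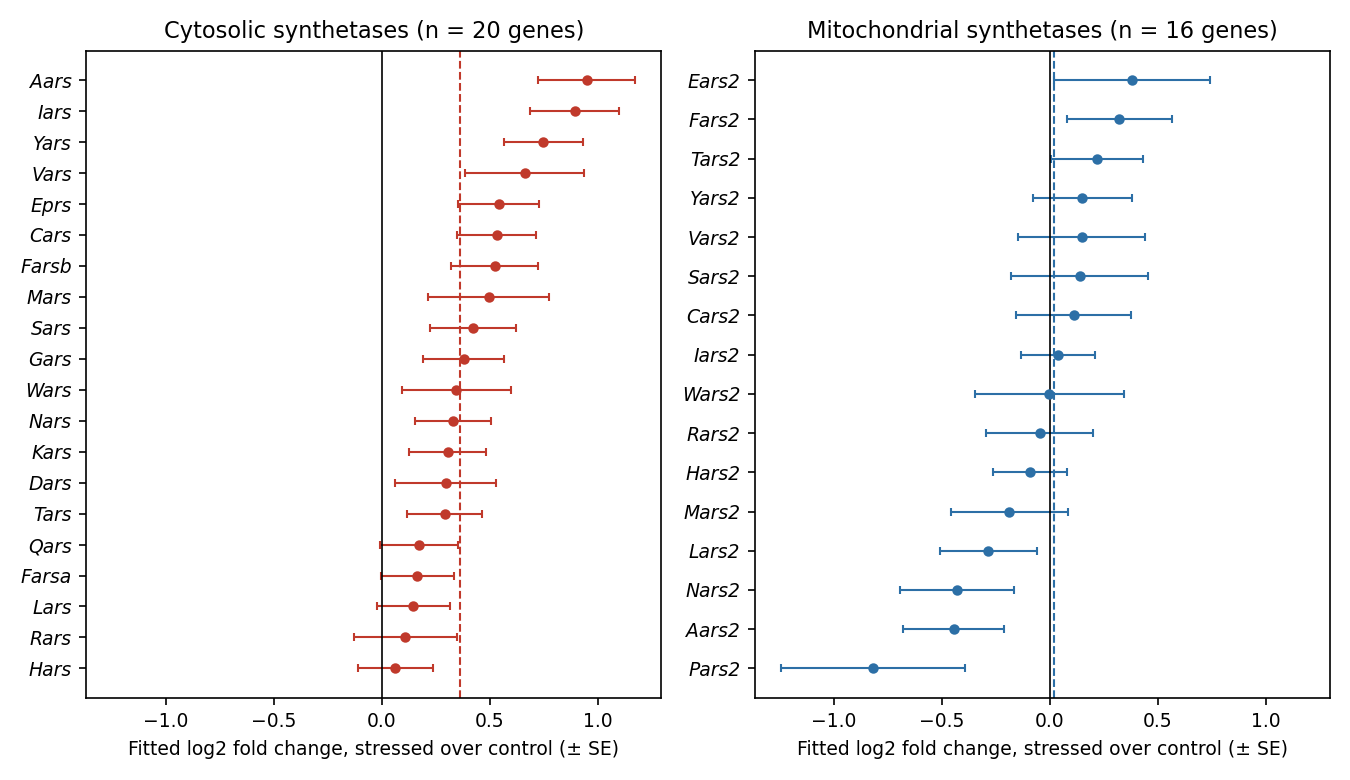
Fitted log2 fold change, stressed over control, of every synthetase gene with its standard error (bars), for the 20 cytosolic genes on the left and the 16 mitochondrial genes on the right, sorted by value, with the median of each set as a dashed line. All cytosolic points lie right of 0, around a median of 0.36, while the mitochondrial points lie on both sides, around a median of 0.02.

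Aars, the alanine enzyme (chromosome 8, 111033144 to 111057664 in mm10), had the highest fold change. It stood at 150.8 and 158.9 CPM in the control libraries and at 247.4 and 350.4 CPM in the stressed ones, 155 ± 5.73 against 299 ± 72.8 CPM (SD, n = 2). The groups did not overlap, and stressed replicate 2 was well above stressed replicate 1. The fitted log2 fold change was 0.95 ± 0.23 (SE), with an adjusted p of 0.189 by edgeR and 0.00535 by DESeq2. Iars, the isoleucine enzyme (chromosome 13, 49682100 to 49734267), read 118.7 and 148.0 CPM in control and 226.2 and 269.3 CPM after RTX. Its groups were also apart, with a log2 fold change of 0.89 ± 0.21 (adjusted p of 0.181 by edgeR and 0.00568 by DESeq2). Yars, the tyrosine enzyme (chromosome 4, 129189760 to 129219607), read 101.7 and 94.1 CPM in control and 151.8 and 177.1 CPM after RTX. Here too both stressed libraries were above both controls, and the log2 fold change was 0.75 ± 0.18 (adjusted p of 0.196 by edgeR and 0.0225 by DESeq2).

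DESeq2 lost some or all of these 3 calls whichever library was left out. The log2 fold change by edgeR was then 0.68 to 1.18 for Aars, 0.76 to 1.07 for Iars and 0.64 to 0.86 for Yars. That of Aars was lowest without stressed replicate 2 and highest without stressed replicate 1. Such a fit has 1 library in a group, so a lost call does not show that it rested on the library removed. Without either stressed library, DESeq2 also called fewer genes at large than with all 4 libraries.

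Vars, the valine enzyme, was next in fold change. It read 111 and 173 CPM in control and 192 and 259 CPM after RTX, with a log2 fold change of 0.66 ± 0.27 (adjusted p of 0.391 by edgeR and 0.233 by DESeq2). The control libraries differed by more than the gap between the nearest control and stressed values. Without control replicate 2, DESeq2 called it, at an adjusted p of 0.00557. Eprs, which carries the glutamate and proline enzymes in a fused protein, had the highest CPM of the cytosolic set in both groups and read 227 and 256 CPM in control and 334 and 370 CPM after RTX (log2 fold change 0.54 ± 0.19, adjusted p of 0.315 by edgeR).

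The 4 lowest cytosolic fold changes belonged to Hars, Rars, Lars and Farsa, the enzymes for histidine, arginine, leucine and a subunit of the phenylalanine enzyme. Hars read 104 and 90.2 CPM in control and 102 and 101 CPM after RTX, so the stressed values fell between the controls (log2 fold change 0.06). Rars likewise overlapped, with 103 and 67.2 CPM against 89.7 and 93.3 CPM (0.11). Lars, at 94.2 and 100 CPM against 106 and 109 CPM (0.15), and Farsa, at 115 and 118 CPM against 126 and 135 CPM (0.16), were higher in both stressed libraries by small margins. The groups of Mars (methionine) and Wars (tryptophan) also overlapped. The remaining cytosolic genes, Cars, Dars, Farsb, Gars, Kars, Nars, Qars, Sars and Tars, had log2 fold changes of 0.17 to 0.53 without overlap of the groups. The gap was narrow in Dars and Qars, at 145.4 and 125.7 CPM in control replicate 1 against 146.2 and 127.3 CPM in stressed replicate 1. Their log2 fold changes were 0.035 and 0.058 without control replicate 2, and 0.63 and 0.31 without control replicate 1.

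By length, the most abundant cytosolic synthetases were Nars, Gars and Tars, for asparagine, glycine and threonine. Per kilobase of annotated exon, Nars stood at 55.1 ± 4.32 in control and 69.3 ± 2.53 CPM per kb in stressed cells, Gars at 52.6 ± 1.93 and 68.4 ± 8.49, and Tars at 50.2 ± 4.36 and 61.4 ± 0.301 (SD, n = 2). Exon lengths in the files merge all annotated transcripts of a gene, so a gene with a long rare transcript reads too low on this scale. On it, the cytosolic set had a median level of 27.0 CPM per kb in control and 39.9 in stressed cells, and the mitochondrial set 10.9 and 10.001.

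Genes inside and outside the multisynthetase complex were then compared, without a test of their difference. The 8 genes of the complex (Dars, Eprs, Iars, Kars, Lars, Mars, Qars and Rars) had a median fold change of 0.30 (log2), and 6 of them had both stressed libraries above both controls. For the 12 genes outside the complex the median was 0.40, and 10 had both above, where the share of all tested genes was 21.8%, or 28.4% at 50 CPM or more. Iars was the DESeq2 call inside the complex, and Aars and Yars were those outside it. Among the scaffolds, which carry no enzyme activity, Aimp1 read 37.6 and 26.1 CPM against 26.1 and 31.7 CPM (log2 fold change -0.14), and Aimp2 read 31.0 and 25.2 CPM against 26.3 and 29.6 CPM (-0.01). Both overlapped between groups. Eef1e1 read 22.1 and 24.7 CPM in control and 26.8 and 33.4 CPM after RTX (0.36), without overlap, and none of these 3 was called by edgeR or DESeq2.

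ATF4 binds, with partners of the C/EBP family, a composite element read as TGATGNAA. Promoter sequences, 250 bases before to 50 after each gene's start, were taken from RefSeq on GRCm38.p6. They were searched for 27 of the 36 synthetase genes, 13 cytosolic and 14 mitochondrial. The element was searched on both strands and found in 5 of the 13 cytosolic genes (38.5%) and in 0 of the 14 mitochondrial genes. It was found in 3.97% of all 32851 promoters, counted singly, and in 2.76% of the 10426 tested genes with a promoter. The 5 genes were Aars, Iars, Yars, Gars and Tars, thus including all 3 of the cytosolic genes that DESeq2 called. A window of each is shown because it carries this match, written 5′ to 3′ on the gene's strand with the element in capitals, which is read on the opposite strand in all but Yars.
Aars, chr8:111033840-111033869 (+): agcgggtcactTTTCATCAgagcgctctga
Iars, chr13:49682126-49682155 (+): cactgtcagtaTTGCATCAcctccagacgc
Yars, chr4:129189895-129189924 (+): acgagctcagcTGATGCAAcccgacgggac
Gars, chr6:55037960-55037989 (+): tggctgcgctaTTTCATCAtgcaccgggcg
Tars, chr15:11399655-11399684 (-): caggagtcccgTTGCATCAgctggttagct
The windows of Aars, Iars and Yars fall inside the gene as the count files annotate it. The 5 cytosolic genes with the element had a median fold change of 0.75 (log2) and the searched ones without it 0.36. Over all tested genes with a promoter, the medians were -0.05 with the element and -0.0045 without. Gars and Tars, at 0.38 and 0.29, lay near or below the median of the whole cytosolic set, so the element did not mark only the highest fold changes. A match is a description of the letters, not a measured site. No promoter was searched for Cars, Hars, Lars, Nars, Rars, Vars, Wars, Hars2 and Pars2.

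The E-box CACGTG is a palindrome bound by MYC and by MITF, the master regulator of pigment cells. It was found in 4 of the 13 cytosolic genes searched and in 1 of the 14 mitochondrial ones. Among all promoters, counted singly, 7.15% held it, as did 11.8% of tested genes with a promoter. It stood in Aars, Farsb, Iars and Tars and in the mitochondrial Ears2, so that Aars, Iars and Tars held both motifs. The E-boxes of the 2 highest cytosolic genes and of Ears2 are shown, in capitals, for this overlap and for the exception among mitochondrial genes.
Aars, chr8:111033685-111033712 (+): gtcaaccctgtCACGTGacactccatgt
Iars, chr13:49682050-49682077 (+): accaatcgccaCACGTGttgtttgtagg
Ears2, chr7:122067049-122067076 (-): gcgaaggagccCACGTGtgtgtttctag
Ears2 had the highest fold change of the mitochondrial set, with overlapping groups, as described next.

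The 16 mitochondrial synthetase genes divided evenly, 8 with a fitted log2 fold change above 0 and 8 below, around a median of 0.02 (range -0.82 to 0.38). None was called by edgeR (smallest adjusted p 0.487), DESeq2 or limma-voom, and none had an unadjusted edgeR p below 0.05. Fars2 alone had both stressed libraries above both controls, that is 1 of 16 beside 21.8% of all tested genes. Aars2, Hars2, Nars2 and Pars2 had both below, that is 4 of 16 beside 22.9% of all tested genes. As transcripts they were less abundant than the cytosolic genes, with a median of 31.4 CPM in control and 32.6 CPM after RTX against 117 and 155 CPM, so that their fold changes carry wider counting error.

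Pars2, the proline enzyme of mitochondria, had the lowest fold change and was the least abundant member. It had 118 and 97 counts in control and 53 and 75 counts in stressed cells, that is 12.6 and 8.22 CPM against 4.98 and 6.82 CPM. The groups were apart, but with a log2 fold change of -0.82 ± 0.43 the difference did not pass the test (adjusted p of 0.488 by edgeR and 0.600 by DESeq2). Aars2, for alanine, read 36.7 and 38.3 CPM against 25.3 and 29.8 CPM (-0.45 ± 0.23, adjusted p of 0.487 by edgeR). Nars2, for asparagine, read 34.0 and 25.7 CPM against 22.2 and 22.0 CPM (-0.43 ± 0.26). In all 3 the stressed libraries were the lower ones, and in none was the difference called.

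At the other end, Ears2, the glutamate enzyme, read 19.4 and 29.2 CPM in control and 23.1 and 40.2 CPM after RTX (log2 fold change 0.38 ± 0.36). Fars2, the phenylalanine enzyme, read 36.4 and 28.6 CPM against 37.5 and 43.6 CPM (0.32 ± 0.24). Tars2, the threonine enzyme, read 86.1 and 84.9 CPM against 83.0 and 116 CPM (0.22), where stressed replicate 2 alone was high. Apart from the narrow gap in Fars2, these groups overlapped.

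Lars2, the leucine enzyme of mitochondria, was the most abundant synthetase of either set per kilobase, at 85.1 ± 19.95 in control and 69.8 ± 4.62 CPM per kb in stressed cells. Its libraries read 385 and 276 CPM in control and 284 and 258 CPM after RTX, so control replicate 1 alone was high and the groups overlapped (log2 fold change -0.29 ± 0.23). By the mean over both groups, Hars2 and Fars2 followed per kilobase, at 18.1 ± 0.559 and 15.3 ± 2.62 CPM per kb in control and 16.9 ± 0.747 and 19.1 ± 2.06 in stressed cells. In control alone, Rars2 (17.3) and Iars2 (16.5 CPM per kb) stood above Fars2. Hars2 read 79.0 and 75.6 CPM against 74.6 and 70.1 CPM (-0.09), a small and even difference. Iars2, Rars2 and Wars2, for isoleucine, arginine and tryptophan, lay within 0.05 of 0 on the log2 scale.

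Since counting was unstranded, reads from exons that genes share cannot be told apart. Exons of another gene overlapped those of 9 members, and the shared part was over 10% of the exon bases in Cars2 (20.5%, with Carkd) and Iars2 (24.2%, with 2010103J01Rik and Rab3gap2). Hars and Hars2, neighbours on chromosome 18 that face away from each other, shared 9.81% and 4.56% of their exon bases with each other. Mars shared 1.99% with Ddit3, a stress-induced transcription factor gene.

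The libraries were then compared by compartment. Centred on each gene's mean over the 4 libraries, the median log2(CPM + 0.5) of the cytosolic genes was -0.14 and -0.23 in the controls, and 0.08 (replicate 1) and 0.33 (replicate 2) after RTX. For the mitochondrial genes it was 0.05 and 0.01 against -0.13 and 0.10, which overlapped. The difference between compartments was -0.18 and -0.24 in control and 0.21 and 0.23 in stressed cells, with the libraries of each group close together. Stressed replicate 2 had the highest level of 18 of the 20 cytosolic genes and control replicate 1 that of the other 2. Of the 16 mitochondrial genes, stressed replicate 2 was highest for 7, control replicate 1 for 7, control replicate 2 for 2 and stressed replicate 1 for 0.

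**Figure D2:**
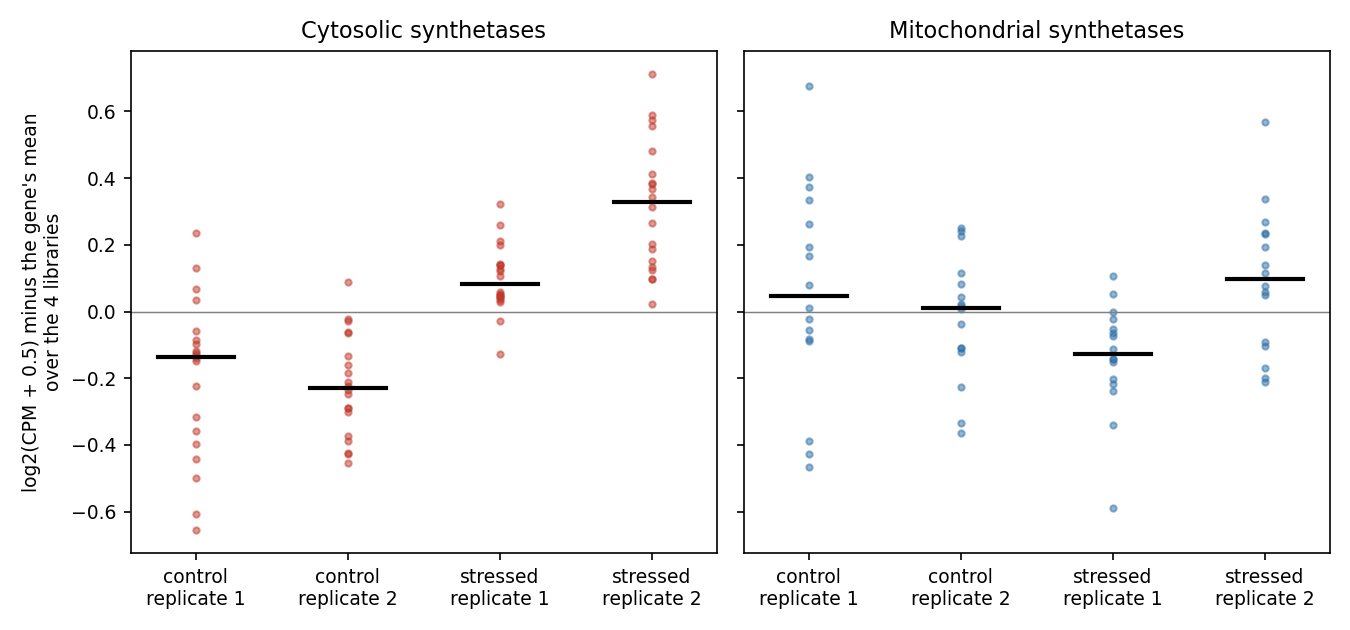
Level of each synthetase gene in each of the 4 libraries, as log2(CPM + 0.5) minus the gene's mean over the libraries (points), with the median over genes as a bar, for cytosolic genes (left) and mitochondrial genes (right). Cytosolic medians are -0.14 and -0.23 in control and 0.08 and 0.33 in stressed libraries, while the mitochondrial medians of the groups overlap.

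Summed over genes, the cytosolic synthetases made up 2527 and 2525 CPM in the control libraries and 3185 and 3777 CPM in the stressed ones (2526 ± 1.20 against 3481 ± 418, SD, n = 2). The mitochondrial sum was 1025 and 908 CPM in control and 883 and 957 CPM after RTX (967 ± 82.2 against 920 ± 51.9), and overlapped. The ratio of the sums, which does not depend on library scaling, was 2.47 and 2.78 in control and 3.61 and 3.95 in stressed cells. Without Lars2, the most abundant mitochondrial member, the ratio was 3.95 and 3.99 against 5.31 and 5.41. With either sum the groups were apart, but 2 against 2 libraries cannot give a two-sided exact permutation p under 0.333, so no test was made.

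The difference between the median fold changes of the sets was 0.35 on the log2 scale. It was also seen within amino acids. Of 17 pairs of a cytosolic and a mitochondrial gene for the same amino acid, covering 16 amino acids, 16 had the higher fold change in the cytosolic gene. Farsa against Fars2 was the exception (0.16 against 0.32), whereas the other cytosolic subunit gene, Farsb, was above Fars2 (0.52). In 12 of the 17 pairs the ratio of cytosolic to mitochondrial level per kilobase exceeded both controls in each stressed library, and in 0 it was below both. The matching share over other pairs of genes was not computed. Among single tested genes, 21.8% had both stressed libraries above both controls, or 28.4% at 50 CPM or more. Eprs and Fars2 each entered 2 pairs, so the pairs are not independent.

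**Figure D3:**
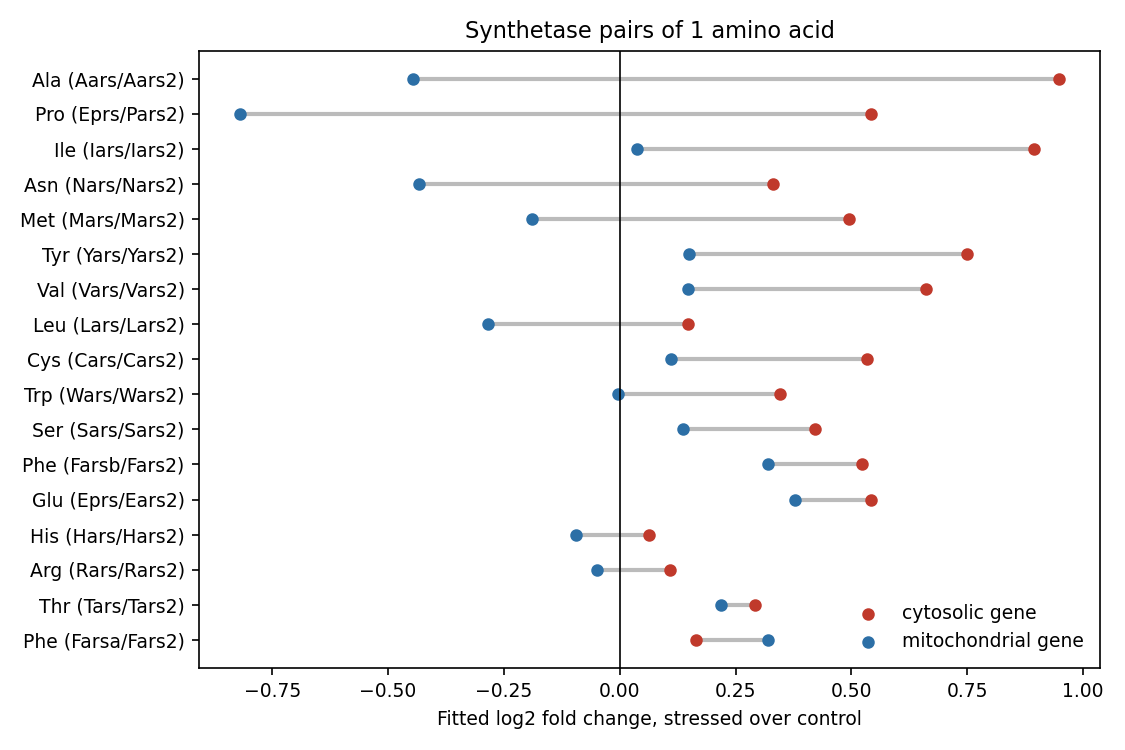
Fitted log2 fold change, stressed over control, of the cytosolic (red) and mitochondrial (blue) gene for each of 17 pairs, joined by a line and sorted by the difference. The cytosolic point is to the right in 16 pairs, with the widest gaps for alanine, proline and isoleucine and the opposite order for Farsa with Fars2.

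The widest gap was that of alanine. The ratio of Aars to Aars2 per kilobase was 1.48 and 1.497 in control and 3.53 and 4.24 in stressed cells, with the fold changes 1.39 apart on the log2 scale. The ratio of Eprs to Pars2 was 3.07 and 5.33 in control and 11.5 and 9.27 in stressed cells (1.36 apart). This pair rests on the 53 to 118 counts of Pars2. Iars over Iars2 was 1.43 and 1.64 in control and 2.61 and 2.94 in stressed cells (0.86 apart), and here the mitochondrial gene stood at 140 and 153 CPM against 146 and 154 CPM. Replicates agreed closely for tyrosine: Yars over Yars2 was 1.56 and 1.55 in control and 2.37 and 2.33 in stressed cells (0.60 apart). Nars over Nars2 went from 11.9 and 14.1 to 21.2 and 22.5 (0.76 apart), with the genes differing in opposite directions. The ratio overlapped between groups for Eprs with Ears2, Farsa with Fars2, Sars with Sars2, Tars with Tars2 and Wars with Wars2. Leucine was the only pair whose mitochondrial gene was the more abundant per kilobase, with Lars over Lars2 at 0.246 and 0.366 in control and 0.376 and 0.426 in stressed cells.

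Genes that surround the synthetases in the pathway were taken from 8 lists. Of 6 other synthetases and synthetase-like genes, 1 had a fold change above 0 and 5 below (median -0.21), with no call by edgeR or DESeq2. The 5 cytosolic elongation factor genes all had fold changes above 0 (median 0.18), beside 58.1% of tested genes with a mean of at least 50 CPM. Of these, Eef1a1 encodes the factor that brings charged tRNA to the ribosome. In 3 of the 5, both stressed libraries lay above both controls, without a call. This was so for 21.8% of all tested genes, or 28.4% at 50 CPM or more. Without control replicate 2, Eef1a1 was at -0.12 and Eef1d at -0.07, and Eef1a1 was at -0.04 without stressed replicate 1. The 13 genes of the mitochondrial amidotransferase, the formyltransferase and mitochondrial translation factors had a median of -0.05, 5 above and 8 below 0, without a call. Mtfmt, which formylates the initiator tRNA of mitochondria, read 34.7 and 31.8 CPM against 27.7 and 32.5 CPM (-0.14). The 18 genes for tRNA processing, export and modification had a median of 0.08, 11 above and 7 below 0, also without a call.

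**Figure D4:**
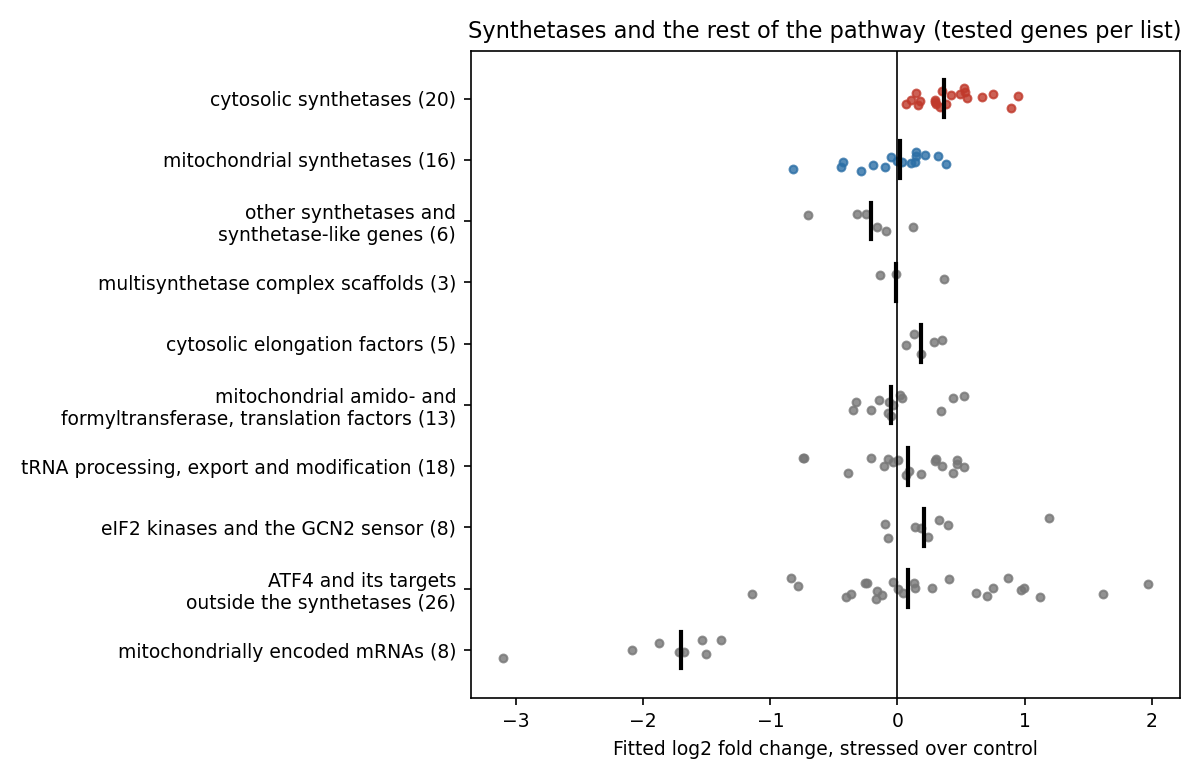
Fitted log2 fold change, stressed over control, of each tested gene (points) and the median (black bar) for the synthetase sets and the 8 lists of related genes, with the number of tested genes in brackets. The cytosolic synthetases lie around 0.36 with none below 0, the ATF4 targets spread from -1.15 to 1.97 around 0.09, and the mitochondrially encoded mRNAs lie around -1.70.

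Members of the list of ATF4 and its targets outside the synthetases lay in both directions. Of 27 genes, 26 were tested, with 15 above and 11 below 0 and a median of 0.09, and 11 had both stressed libraries above both controls and 5 both below, beside 21.8% and 22.9% of all tested genes. DESeq2 called 5 of the 26 higher and 0 lower, beside the 1.75% and 2.67% of all tested genes given above, and edgeR called none (smallest adjusted p 0.126). Slc7a5 and Slc3a2 encode the light and heavy chains of the transporter for large neutral amino acids such as leucine, isoleucine and tyrosine. Slc7a5 read 257 and 223 CPM in control and 469 and 489 CPM after RTX (log2 fold change 0.998 ± 0.190, DESeq2 adjusted p 7.13e-05). Slc3a2 read 444 and 479 CPM against 720 and 786 CPM (0.71 ± 0.20, DESeq2 adjusted p 0.00728). Both had tight replicates, and the groups were far apart.

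Slc7a1, a carrier of cationic amino acids, read 49.8 and 43.7 CPM in control and 74.1 and 96.5 CPM after RTX (0.87 ± 0.21, DESeq2 adjusted p 0.0342). Asns, asparagine synthetase, which makes asparagine and does not charge tRNA, read 46.8 and 32.4 CPM against 68.1 and 87.5 CPM (0.97 ± 0.25, DESeq2 adjusted p 0.0370). Mthfd2, a mitochondrial enzyme of one-carbon metabolism, read 4.93 and 4.83 CPM against 17.6 and 20.6 CPM (1.97 ± 0.33, DESeq2 adjusted p 6.24e-04). In each of these genes the groups did not overlap. With a library left out, the log2 fold change by edgeR was 0.90 to 1.11 for Slc7a5 and 0.65 to 0.77 for Slc3a2. It was 1.85 to 2.08 for Mthfd2, 0.74 to 1.27 for Asns and 0.67 to 1.05 for Slc7a1. Each of these fits leaves 1 library in a group, and DESeq2 lost some or all of the 5 calls in every one. Without either stressed library, it also called fewer genes at large than with all 4 libraries.

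The 5 members with both stressed libraries below both controls, named after their values were seen, were Psph, Slc6a9, Psat1, Cebpb and Cebpg, and none was called by edgeR or DESeq2. Psph, an enzyme of serine synthesis, read 73.2 and 56.9 CPM in control and 34.8 and 37.8 CPM after RTX (-0.84 ± 0.22, DESeq2 adjusted p 0.0629, edgeR adjusted p 0.221). Slc6a9, a glycine transporter gene, read 22.8 and 20.8 CPM against 9.39 and 15.9 CPM (-0.79 ± 0.34), and Psat1, also of serine synthesis, was at -0.37. The list thus held genes of amino acid supply that differed in opposite directions. Atf4 itself read 236 and 243 CPM in control and 297 and 281 CPM after RTX (0.27 ± 0.18, DESeq2 adjusted p 0.629). ATF4 is known to be controlled mostly at translation, which RNA counts do not measure. Ddit3, the CHOP gene, read 34.3 and 35.0 CPM against 36.3 and 39.7 CPM (0.13), and Trib3, a pseudokinase gene, read 6.11 and 3.30 CPM against 2.53 and 6.64 CPM (-0.03), with overlap. Sesn2, an inhibitor of mTORC1 signalling, read 39.1 and 23.0 CPM against 48.5 and 46.6 CPM (0.62 ± 0.30, DESeq2 adjusted p 0.459). Chac1, a glutathione-degrading enzyme gene, was at or below 1.64 CPM in every library and was not tested. The TGATGNAA element was found in 7 of the 24 list members with a promoter (29.2%), whose median fold change was -0.03, beside 0.04 for those without.

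Of 8 tested genes around the eIF2 kinases and the GCN2 sensor, 6 had fold changes above 0 and 2 below (median 0.21). The list includes Eif2s1, which encodes an eIF2 subunit, and Ppp1r15a and Ppp1r15b, for phosphatase subunits that act against the kinases. DESeq2 called 1 of the 8 higher, beside 1.75% of all tested genes. This was Eif2ak2, which encodes the kinase PKR, a sensor of double-stranded RNA. It read 22.5 and 21.7 CPM in control and 53.9 and 47.2 CPM after RTX (1.19 ± 0.22, DESeq2 adjusted p 0.00225, edgeR adjusted p 0.137). Without stressed replicate 1 or 2 the DESeq2 adjusted p was 0.600 and 0.578. Eif2ak4, the gene for GCN2, read 26.7 and 39.7 CPM against 31.7 and 41.3 CPM (0.14), with overlap.

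Of 13 mitochondrially encoded mRNAs, which the mitochondrial synthetases serve to translate, 8 were tested. All 8 had both stressed libraries below both controls, beside 22.9% of all tested genes. Their log2 fold changes were -3.10 to -1.39, with a median of -1.70. The lowest was that of mt-Nd3, with only 9 and 37 counts in control and 1 and 4 after RTX, and the next was -2.09 for mt-Nd1. DESeq2 called 7 lower, beside 2.67% of all tested genes, namely mt-Co1, mt-Cytb, mt-Nd1, mt-Nd2, mt-Nd4, mt-Nd5 and mt-Nd6, and edgeR called none. With each library left out in turn, the edgeR log2 fold change was -2.29 to -1.26 for mt-Co1 and -2.52 to -1.44 for mt-Nd1. For the other 5 it lay between -2.23 and -0.61, and DESeq2 lost each of their calls in some of these fits. mt-Co2, mt-Co3, mt-Atp6 and mt-Atp8 were listed at 0 in every library although mitochondria need them, so the counts of these genes do not give their levels. The mitochondrial share of all counts was 0.906% and 2.07% in control and 0.479% and 0.405% in stressed cells. Their part in the level of the mitochondrial synthetases, which are nuclear genes, was not tested.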

How the data were processed

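For every gene the authors deposited a raw count of reads, obtained with featureCounts 1.6.1 on mm10, per the file headers, from reads in exons summed by gene name at a mapping quality of at least 30, without a strand or paired-end option. The exon length of each gene is the other deposited measure used, per the file headers. DESeq2 1.22.2, STAR 2.5.3 and Trim Galore 0.4.1 are named in the submitters' processing notes. RNA was isolated with RNeasy micro and amplified with Smart-Seq V4, per the labels. The headers number the alignments of stressed replicates 1 and 2 as 2 and 3.

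Counts were analysed in R 4.3.3. Genes kept by filterByExpr (minimum count 10) were fitted with edgeR 4.0.16, TMM scaling and the two-sided quasi-likelihood F-test with group as the only term, with 0.05 as the threshold for p-values adjusted by Benjamini-Hochberg over all 13348 genes. Dividing the size of the log2 fold change by the root of F gave its standard error. Alternatives were DESeq2 1.42.0, limma 3.58.1 (voom), other scalings and filters, a replicate block, thinning, removal of the 20 most abundant genes and each library left out. The robust quasi-likelihood fit and the likelihood ratio test were added after seeing the data. The fit was tested on simulated data. Replicates differed beyond sampling noise (chi-square per degree of freedom 53.99 in control and 17.99 in stressed).

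The members and lists were chosen with earlier results of these data known, and the division by the multisynthetase complex and the 50 CPM background after the files were seen. Values per library were to be given for members called by edgeR or DESeq2, for the 4 cytosolic and 3 mitochondrial members with the highest and lowest fold changes, for the 3 most abundant per kilobase, for pairs set side by side, for called genes of the pathway lists and for 12 pathway genes whatever their result. A few items are not reported here. Promoter matching used gene symbols and, for Mars, a synonym.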

Additional observations from a re-analysis of the deposited data

How the results depend on the processing

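Over 19 alternatives, 376 of 380 fold changes of cytosolic members kept their sign, as did all but 27 of 304 of mitochondrial members. Many of the alternatives refit the same 4 libraries, and the share over all tested genes is not given. The 4 cytosolic sign changes, in Hars and Rars, all came without control replicate 2. Cytosolic calls numbered 0 in the main analysis and 3 with no low-count filter, with DESeq2 and with edgeR's likelihood ratio test, and 0 to 3 with a library left out. Calls over all genes numbered 0, but 760 with no filter, 589 with DESeq2 and 549 with the likelihood ratio test, and 0 to 800 with a library left out: with edgeR 628 without control replicate 1, 739 without control replicate 2 and 0 without either stressed library. Mitochondrial members had 0 calls throughout. With a library left out, the cytosolic median of 0.36 ranged from 0.27 to 0.53, the mitochondrial median from -0.08 to 0.11 and their difference of 0.35 from 0.34 to 0.44, and limma-voom gave 0.31. The replicate numbers are not said to pair libraries, and deviations of same-numbered libraries correlated at 0.172 across genes. With the replicate block there were 0 calls, and the medians were 0.365 and 0.0347, 0.330 apart.

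Some log2 fold changes changed sign with a library left out, among them those of Ears2 (0.38) and Tars2 (0.22). The range was -0.0316 to 0.18 for Hars, -0.16 to 0.46 for Rars, -0.0878 to 0.30 for Cars2, -0.0665 to 0.73 for Ears2, -0.0183 to 0.11 for Iars2, -0.27 to 0.23 for Rars2, -0.14 to 0.49 for Sars2, -0.0355 to 0.45 for Tars2, -0.15 to 0.53 for Vars2 and -0.32 to 0.41 for Wars2. Among pathway genes it was -0.88 to 0.51 for Trib3, -0.11 to 0.46 for Eif2ak4, -0.38 to 0.16 for Aimp1 and -0.15 to 0.16 for Aimp2. Wars2, at -0.0042 in the main analysis, was 0.00105 with DESeq2 size factors, 0.00124 with DESeq2, 0.066 with limma-voom, 0.0313 with the replicate block and 0.000351 without the 20 most abundant genes. Aimp2 was 0.00797 with limma-voom and 0.000104 after thinning. The cause of these changes was not tested. A fit with a library removed takes the spread of the remaining library from the other group. Pars2, at 53 to 118 counts, has the least depth among the members.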
